A study of Solea senegalensis with 15 samples.

Results

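Both gonadotropins, pooled, were compared with saline in the testis of the Senegalese sole (Solea senegalensis), a flatfish, to describe the genes whose level moved the same way after either hormone. The comparison set 10 hormone-treated fish against 5 saline fish, which are all 15 fish of the series. The hormone fish were 5 given recombinant follicle-stimulating hormone (rFsh 61, 62, 64, 68 and 69) and 5 given recombinant luteinizing hormone (rLh 63, 64, 66, 67 and 68). The controls were saline 63, 64, 66, 67 and 68. All were males 2 years old, the first generation from wild-caught parents, and were injected into the muscle once a week for 6 weeks with saline or with 18 µg/kg of one hormone. A modified SMARTseq2 library was made from the testis RNA of each fish and reads per annotated gene were counted. A gene entered the comparison if at least 1 of the 15 fish had 50 counts, which held for 21227 of the 28921 genes in the counts. The contrast was the mean of the rFsh and rLh groups minus saline, with the mean of each hormone group weighted equally. The library of each fish is 1 replicate, and no label gives a batch.

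Fsh and Lh are glycoprotein hormones of the pituitary that drive spermatogenesis. In the fish testis the Fsh receptor is found on Sertoli cells, which nurse the germ cells, and on the Leydig cells, which make the androgen 11-ketotestosterone, while Lh acts mainly on Leydig cells and in some species also on germ cells. Both receptors signal through cyclic AMP and protein kinase A. Spermatogonia divide by mitosis, enter meiosis as spermatocytes, and become spermatids that build a flagellum. In sole many spermatids leave their cysts and mature in the lumen of the tubule, so that contacts between germ and Sertoli cells have to open and close. In RNA from whole testis a lower level of a gene can come from fewer cells of a type or from less RNA per cell, and these cannot be told apart.

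The libraries held 50720000 to 109800000 reads (to 4 digits) assigned to genes. The tissue carried the markers of a testis in every fish: summed over the tested markers, Sertoli cell genes, led by gsdf, reached 2420 to 3800 CPM (counts scaled to the total of each library), those of spermatogonia, led by piwil1, 1120 to 1860 CPM, and those of spermatocytes, led by sycp1, 558 to 948 CPM. The gene annotated fshr, the symbol of the Fsh receptor, did not reach 50 counts in any fish. Markers were matched by symbol, so a receptor locus without a symbol would be missed. Saline 68 and rFsh 69 stood apart from their groups. On the first principal component of log2 CPM, which held 19.6% of the variance, saline 68 lay at -25.3 while the other saline fish lay between 20.5 and 42.9. The rFsh fish lay between -43.2 and 7.84, with rFsh 69 at 7.84 and the next, rFsh 61, at -14.5. The rLh fish lay between -6.66 and 15.5. Leydig cell markers, led by hsd3b1, summed to 1630 CPM in saline 68 against 625 to 1080 CPM in the other saline fish, with 610 to 2240 CPM after rFsh and 1090 to 2010 CPM after rLh. The lowest of these sums, 610 CPM, was in rFsh 69. The labels state 4 libraries per group, while the counts hold 5, and which library is the additional one is not given in the labels. Counts of genes called, and the values of some but not all genes that saline 68 moved, are given with and without it.

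No gene passed the adjusted threshold of 0.05 in the pooled contrast. By edgeR's quasi-likelihood test with Benjamini-Hochberg adjustment, 0 of 21227 genes (0%) were called, and the smallest adjusted p was 0.0788, followed by 0.181. At an unadjusted p under 0.05 there were 3647 genes (17.2%), 1706 higher (8.04%) and 1941 lower (9.14%) after hormone. Over all tested genes, 51.8% had a pooled value above saline. On the same genes DESeq2 called 353 (1.66%), 177 higher and 176 lower, and limma-voom with sample weights called 0. Without saline 68, edgeR called 415 of 21170 genes (1.96%), 183 higher and 232 lower. The genes below are therefore described by their values, and none is said to have passed the edgeR test over all 15 fish.

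A stricter description asks for an unadjusted p under 0.05 in the same direction in rFsh against saline and in rLh against saline. This held for 1034 genes (4.87%), 472 higher (2.22%) with a median pooled log2 fold change of 0.50, and 562 lower (2.65%) with a median of -0.33. The pooled difference went beyond 1 on the log2 scale in 39 of the higher and 22 of the lower genes. Both comparisons used the same 5 saline fish. In 686 of the 1034 genes (66.3%) the saline fish nearest to the hormone fish was saline 68, against 39.9% over all tested genes. Of the 353 genes called by DESeq2, 313 were among the 1034, and of the 415 called by edgeR without saline 68, 292 were. In rLh minus rFsh no gene passed adjustment by edgeR's test, while 2103 of the tested genes had an unadjusted p under 0.05. The volcano plot shows where the 1034 genes lie.

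**Figure D1:**
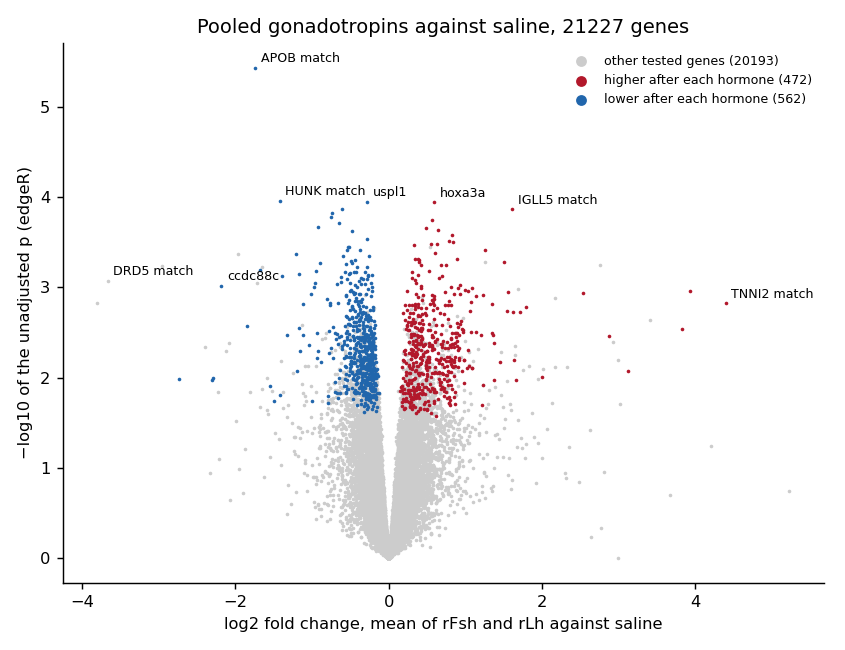
Pooled log2 fold change of each of 21227 tested genes (x axis) against -log10 of its unadjusted edgeR p (y axis). Red points are the 472 genes higher and blue points the 562 genes lower at an unadjusted p under 0.05 after each hormone, and grey points are the other genes. The APOB match, at an adjusted p of 0.0788, is the highest point.

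Complete separation of the fish was rare. In 18 genes (0.0848%) all 10 hormone fish were above all 5 saline fish, and in 34 genes (0.160%) all were below. Of these 52 genes, 45 were also among the 1034, and their pooled difference was between 0.13 and 4.4 in size on the log2 scale. One of them, uspl1 (linkage group 13, 17411848 to 17425734), whose product is a SUMO protease of Cajal bodies, had 201, 181, 181, 175 and 177 CPM in saline 63 to 68, 146 to 161 CPM after rFsh and 139 to 167 CPM after rLh. Its pooled log2 fold change was -0.28 ± 0.05 (SE), with -0.25 for rFsh and -0.30 for rLh (unadjusted p = 0.000113).

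The lower gene of smallest p was LOC122783953 (linkage group 17, 13025122 to 13039986), which has no symbol of its own and whose best human match is APOB, the structural protein of lipoproteins that carry triglyceride and cholesterol. Names marked in this way as a match are the best human protein matches that the study printed for its differential genes. LOC122783953 had 16.0, 20.9, 19.8, 30.0 and 16.7 CPM in saline 63, 64, 66, 67 and 68. After rFsh the 5 fish had 3.32, 2.48, 2.16, 2.27 and 4.28 CPM, and after rLh 16.3, 19.9, 7.24, 15.6 and 5.85 CPM. All rFsh fish lay below all saline fish, while of the rLh fish 3 lay below the saline range, rLh 67 by little, and rLh 63 and 64 lay within it. The pooled log2 fold change was -1.74 ± 0.25 (adjusted p = 0.0788, 5.9e-07 to 0.342 over the alternatives). The value was larger in size after rFsh, with -2.81 ± 0.33 after rFsh and -0.67 ± 0.28 after rLh, a difference of 2.14 with a 95% interval of 1.42 to 2.86.

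Another of the 12 lower genes of smallest p, rptor (linkage group 6, 2187445 to 2393918), encodes raptor, the scaffold through which the kinase complex mTORC1 binds its substrates. It had 86.7, 84.8, 95.3, 94.2 and 89.5 CPM in the saline fish, 69 to 84.7 CPM after rFsh and 65.4 to 80.5 CPM after rLh. The highest hormone fish, rFsh 61 at 84.7, lay just below the lowest saline fish, saline 64 at 84.8, and the pooled log2 fold change was -0.28 ± 0.06 (unadjusted p = 0.000291). cdkn1cb (linkage group 10, 10892971 to 10895193) encodes a relative of p57, an inhibitor of cyclin-dependent kinases that marks cells leaving the cycle. Its saline levels were 35.5, 35.4, 39.4, 42.7 and 27.9 CPM, and those of the hormone fish 17.8 to 28.9 CPM after rFsh and 20.9 to 30.3 CPM after rLh. Only saline 68, at 27.9, overlapped the hormone fish, and the pooled log2 fold change was -0.54 ± 0.12, or -0.62 without saline 68. The calnexin match LOC122762606, a lectin chaperone of the endoplasmic reticulum, had 18.3 to 28.5 CPM in saline and 14.1 to 18.2 CPM in the hormone fish, without overlap (-0.48 ± 0.10). LOC122779972, whose match is the membrane protein TMEM200A, had 71.3 to 99.0 CPM in saline and 35.5 to 60.9 CPM after hormone (-0.61 ± 0.12), again without overlap.

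Other lower genes of smallest p had wider spreads. The match of HUNK, a kinase of the AMPK family, was at 0.945 ± 0.362 CPM (SD, n = 5) in the saline fish, 0.292 ± 0.142 after rFsh and 0.472 ± 0.110 after rLh, a pooled log2 fold change of -1.42 ± 0.28. The counts of the HUNK match ran from 10 to 141 over all fish, and no hormone fish reached the count needed for entry. The HUNK match thus entered the comparison through saline fish alone, and the size of its fold change rests on few reads after hormone. The match of MMP17, a matrix metalloproteinase anchored in the membrane, was at 6.48 ± 2.07, 2.56 ± 0.703 and 4.55 ± 0.886 CPM (-0.92 ± 0.19). The match of COX6B1, a subunit of cytochrome c oxidase, was at 66.2 ± 11.1, 48.3 ± 6.86 and 44.7 ± 6.68 CPM (-0.51 ± 0.11). The matches of CEP85L, a centrosomal protein (-0.75 ± 0.15), of TSTD1, a sulfurtransferase (-0.64 ± 0.13), and of SPSB4, a substrate receptor for ubiquitin ligases (-0.55 ± 0.12), completed the 12 lower genes. Among genes without overlap, the matches of the melatonin receptor MTNR1A (1.41 ± 0.236 CPM in the saline fish, 0.921 ± 0.236 after rFsh and 0.857 ± 0.137 after rLh) and of the semaphorin SEMA4D (434, 322 and 311 CPM) were lower by -0.67 and -0.46 on the log2 scale. So was bfsp2, a lens filament protein, at -0.78, where saline 67 with 19.6 CPM stood above the other saline fish at 6.16 to 8.37 CPM, and without saline 67 the value was -0.36.

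Of the lower genes of largest fold change, ccdc88c rested on saline 67. This gene, which encodes a regulator of Wnt and G protein signalling, had 567 CPM in saline 67 and 93.6 CPM in saline 68, while the other saline fish had 30.2 to 36.9 CPM, inside the 28.4 to 42.1 CPM of the hormone fish. Its pooled log2 fold change of -2.18 ± 0.54 was -0.53 without saline 67 and -2.31 without saline 68. The match of the dopamine receptor DRD5 had 26.4, 1.77, 32.0, 1.96 and 0.451 CPM in saline, 2.2 to 13.7 CPM after rLh and 0.133 to 0.218 CPM after rFsh, so that all rFsh fish lay below all others (rLh minus rFsh 5.09, 95% interval 1.85 to 8.33). mogat2, an acyltransferase of triglyceride synthesis, was at 3.13 ± 1.17, 0.624 ± 0.821 and 1.68 ± 0.851 CPM in saline, rFsh and rLh (-1.65 ± 0.39). slc5a9, a sugar transporter, was at 2.01 ± 1.38, 0.559 ± 0.302 and 0.623 ± 0.0811 CPM (-1.68 ± 0.39). Its span overlaps 2 other annotated genes, and whether their exons overlap was not examined.

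One of the 12 higher genes of smallest p, mad2l1 (linkage group 3, 6993520 to 6997410), encodes Mad2, which holds the spindle checkpoint until chromosomes are attached. It had 49.4, 39.5, 44.8, 48.0 and 48.3 CPM in saline, 81.7, 77.1, 70.3, 73.9 and 50.1 CPM after rFsh, and 51.1, 59.9, 62.7, 65.4 and 54.4 CPM after rLh. All 10 hormone fish were above all saline fish, with rFsh 69 and rLh 63 nearest to them, and the pooled log2 fold change was 0.48 ± 0.10 (unadjusted p = 0.00022, adjusted p = 0.181, 0.00236 to 0.416 over the alternatives). The value after rFsh was 0.62 ± 0.12 and after rLh 0.35 ± 0.12. atr, the kinase that senses stalled replication forks and unpaired meiotic chromosomes, was at 33.4 ± 2.74 CPM (SD, n = 5) in the saline fish, 43.9 ± 2.19 after rFsh and 40.4 ± 4.57 after rLh (0.33 ± 0.07), with rLh 68 at 35.1 below saline 63 at 35.5 and saline 64 at 35.9.

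hoxa3a (linkage group 20, 10168419 to 10198313) encodes a homeobox transcription factor of body patterning and was the higher gene of smallest p. Its levels were 13.3, 11.7, 11, 13.3 and 13.9 CPM in saline, 13.5, 17.8, 18.0, 18.0 and 21.1 CPM after rFsh and 17.0, 17.8, 20.7, 26.0 and 21.5 CPM after rLh. Only rFsh 61 at 13.5 fell within the saline range, and the pooled log2 fold change was 0.60 ± 0.12 (unadjusted p = 0.000114). Its span overlaps hoxa5a and an unnamed gene. Another homeobox gene, hoxc13a, had 2.36 to 3.91 CPM in saline and 4.09 to 7.46 CPM in the hormone fish, without overlap (0.70 ± 0.17).

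Of the other higher genes, grm5a, a metabotropic glutamate receptor, was at 7.24 ± 1.19 CPM (SD, n = 5) in the saline fish, 12.7 ± 1.49 after rFsh and 9.10 ± 1.18 after rLh (0.56 ± 0.12, rLh minus rFsh -0.48, 95% interval -0.76 to -0.20). The match of CASR, the calcium-sensing receptor, was at 0.564 ± 0.219, 1.47 ± 0.496 and 1.27 ± 0.262 CPM (1.25 ± 0.28), where rFsh 61 with 0.597 CPM stayed within the saline range of 0.221 to 0.776 CPM. The match of HGFAC, the protease that activates hepatocyte growth factor, had 7.19 to 8.57 CPM in saline, 8.70 to 15.3 CPM after rFsh and 8.64 to 11.6 CPM after rLh, without overlap (0.56 ± 0.12). calua, a calcium-binding protein of the secretory pathway, was at 28.3 ± 5.14, 42.6 ± 5.09 and 43.8 ± 9.69 CPM (0.61 ± 0.14). The match of TP53I11, a target of p53 (0.63 ± 0.14), zmat4a, a zinc finger protein (0.65 ± 0.14), and trarg1a (0.78 ± 0.17), whose mammalian counterpart TRARG1 regulates the glucose transporter GLUT4 and whose printed human match is PRRT2, completed the set with nectin3b and the IGLL5 match described below. The values for each hormone are shown side by side in the plot of the 24 genes.

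**Figure D2:**
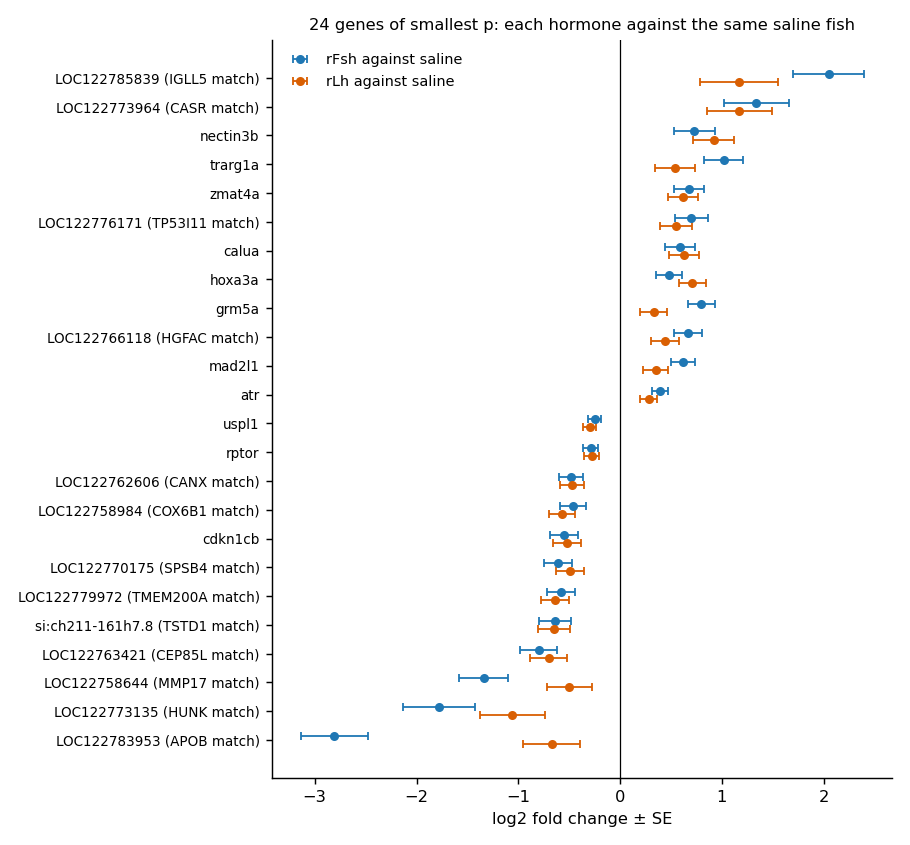
Log2 fold change with its SE (x axis) after rFsh (blue) and after rLh (orange), each against the same 5 saline fish, for the 12 higher and 12 lower genes of smallest pooled p with a known protein. The genes were chosen to have the same sign after each hormone, and the hormones lie farthest apart for the APOB match, at -2.81 and -0.67.

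**Figure D3:**
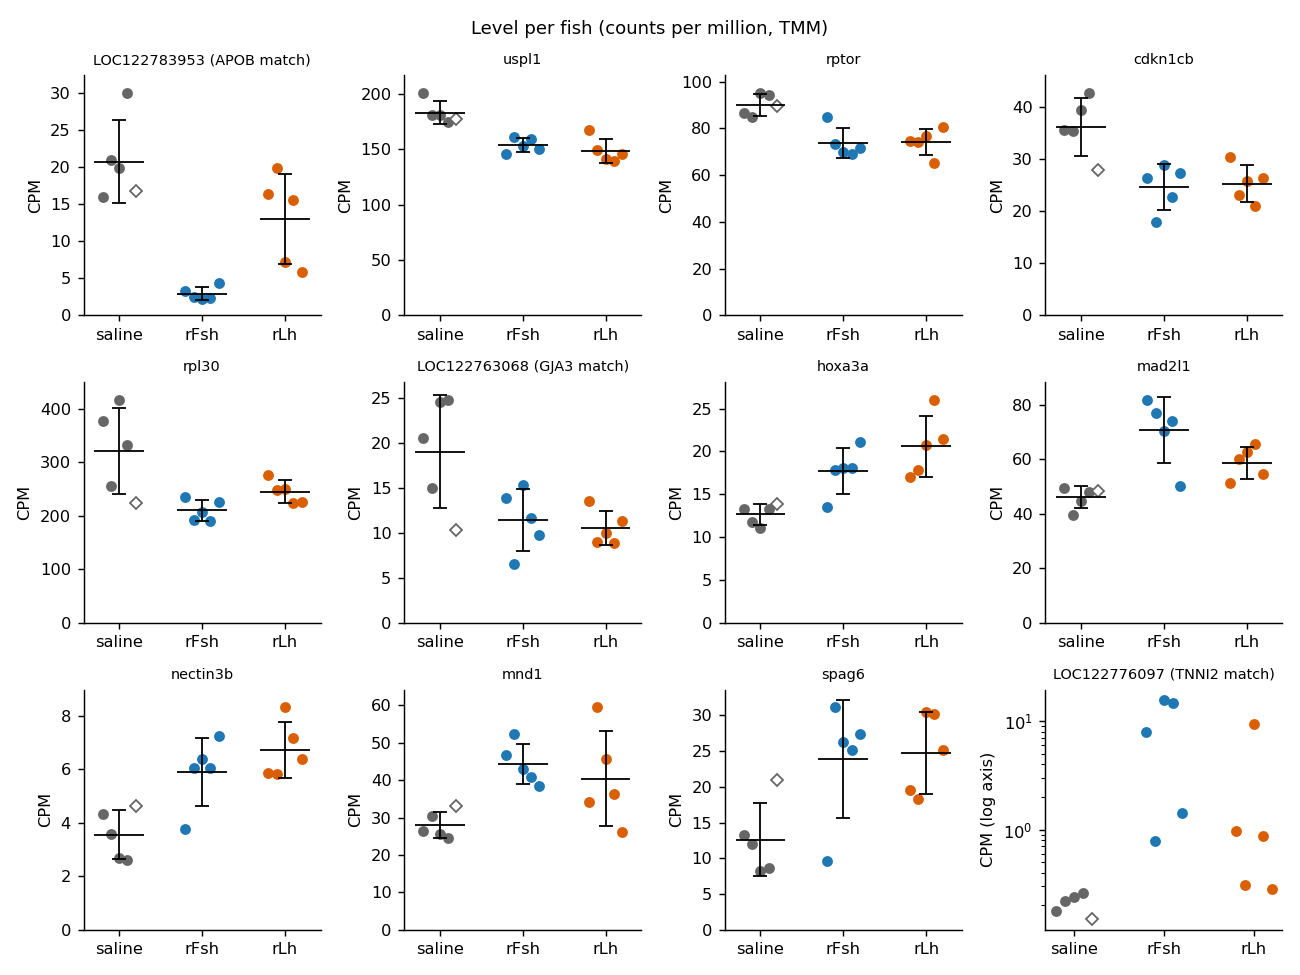
Level of 12 genes in every fish (y axis, CPM after TMM scaling, on a log axis for the TNNI2 match) in the saline, rFsh and rLh groups. Points are single fish, the open diamond is saline 68, and the bars are the mean ± SD of 5 fish (not drawn on the log axis). uspl1, rptor, mad2l1 and the TNNI2 match separate all hormone fish from all saline fish, the TNNI2 match by few reads at its low end. In rpl30, the GJA3 match and spag6 saline 68 lies with the hormone fish.

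Meiosis genes lay above saline almost without exception. Of 21 tested genes of synapsis and recombination, 20 were above saline and 10 of them (47.6%, against 8.04% of all genes) had an unadjusted p under 0.05, none below. The median log2 fold change was 0.27 over the list and 0.01 over all tested genes, with 0.37 after rFsh and 0.10 after rLh. Genes at p under 0.05 after each hormone were mnd1, dmc1, terb2 and hormad1, all higher, where 2.22% of all genes were higher after each. mnd1 (linkage group 6, 21807548 to 21825053), a partner of the recombinase, had 26.5, 30.5, 25.7, 24.6 and 33.0 CPM in saline, 46.7, 52.3, 43.1, 40.8 and 38.5 CPM after rFsh and 34.3, 59.5, 45.6, 36.4 and 26.1 CPM after rLh. All fish but rLh 68 were above saline (0.59 ± 0.15, unadjusted p = 0.00126, adjusted p = 0.181). dmc1, the meiotic recombinase, was at 30.2 ± 9.28 CPM (SD, n = 5) in the saline fish, 48.2 ± 13.3 after rFsh and 43.0 ± 6.52 after rLh (0.59 ± 0.20), with rFsh 69 at 25.2 CPM below the other hormone fish. Inside the saline range of 18.4 to 43.9 CPM were rFsh 69, rLh 67 at 42.2 CPM and rLh 68 at 32.1 CPM.

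The means of sycp2 and sycp1, which encode proteins of the synaptonemal complex, were higher after rFsh than after rLh, and by edgeR's test neither difference passed adjustment (adjusted p = 0.4 for each). sycp2 was at 85.7 ± 7.43 CPM (SD, n = 5) in the saline fish, 135 ± 27.4 after rFsh and 99.9 ± 10.6 after rLh, and rLh minus rFsh was -0.43 with a 95% interval of -0.70 to -0.16. sycp1 was at 331 ± 33.7, 447 ± 54.5 and 355 ± 36.1 CPM (rLh minus rFsh -0.33, -0.54 to -0.12). The summed level of 7 tested spermatocyte markers, all of them also on the meiosis list, was 558 to 676 CPM in saline, 697 to 948 CPM after rFsh and 693 to 733 CPM after rLh, so that no hormone fish overlapped a saline fish. Whether the cells or their RNA content differed was not tested.

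Cell cycle genes lay mostly above saline by smaller amounts. Of 60 genes of replication and mitosis, 53 were above saline, 19 were higher at an unadjusted p under 0.05 (31.7%, against 8.04% of all genes) and 2 lower (3.33%, against 9.14%). The median was 0.19, with 0.18 after rFsh and 0.16 after rLh. At p under 0.05 after each hormone were 7, all higher, where 2.22% of all genes were: ccne2, mybl2a, e2f8, cdk2, tyms, pcna and e2f7. ccne2, a cyclin of the entry into S phase, had 9.85 to 13.1 CPM in saline, 12.8 to 16.3 CPM after rFsh and 12.2 to 14.8 CPM after rLh (0.35 ± 0.09), and saline 68 with 13.1 CPM was the saline fish that overlapped. mybl2a, a transcription factor of dividing cells, was at 53.7 ± 4.56, 67.9 ± 5.14 and 61.1 ± 6.81 CPM (0.26 ± 0.08), and the repressor e2f8 at 62.1 ± 17.8, 87.8 ± 20.6 and 96.5 ± 9.36 CPM (0.57 ± 0.17). orc5, a subunit of the origin recognition complex, was at 2.78 ± 0.579 CPM in the saline fish, 5.58 ± 1.20 after rFsh and 3.14 ± 0.551 after rLh, and rLh minus rFsh was -0.83 (-1.22 to -0.43). The 2 lower genes were orc1 at -0.26 and bub1 at -0.15.

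Genes of the sperm flagellum were higher in part. Of 54 tested, 36 were above saline, where 51.8% of all genes were, and 11 were higher at an unadjusted p under 0.05 (20.4%, against 8.04% of all genes), with none lower (against 9.14%). The median was 0.06. At p under 0.05 after each hormone were cfap43, spag6, dnai1.2 and dnah5, all higher, where 2.22% of all genes were higher after each. spag6, a protein of the central pair of the axoneme, had 13.2, 12, 8.21, 8.70 and 21.0 CPM in saline, 9.65, 31.1, 26.2, 25.1 and 27.4 CPM after rFsh and 19.6, 18.3, 30.5, 30.2 and 25.1 CPM after rLh. Without saline 68, which lay inside the rLh range, and with rFsh 61 the only hormone fish among the other saline fish, the pooled log2 fold change was 1.21 instead of 0.95 ± 0.26. cfap43 (0.48 ± 0.13), the dynein intermediate chain dnai1.2 (0.41 ± 0.13) and the heavy chain dnah5 (0.48 ± 0.16) had 20.5 to 31.0, 21.2 to 37.5 and 20.5 to 26.3 CPM in saline. Each of these 3 shares part of its span with another gene. The marker sum for spermatids and sperm ran from 162 to 275 CPM in the saline fish, 167 to 276 after rFsh and 187 to 290 after rLh, with saline 68 at 275.

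Ribosomal protein genes lay below saline throughout. All 75 tested cytosolic ribosomal proteins were below saline and 65 of them (86.7%, against 9.14% of all genes) had an unadjusted p under 0.05. The median log2 fold change was -0.25, with -0.38 after rFsh and -0.13 after rLh, and it was between -0.33 and -0.17 when each fish was left out in turn. DESeq2 called 11 of them and edgeR without saline 68 called 27, where over all tested genes they called 176 and 232 lower. The largest difference was -0.57, for rpl27. Lower at an unadjusted p under 0.05 after each hormone were 9 of the 75, among them rpl30, rpl39 and rpl21, against 2.65% of all genes. rpl30 (linkage group 20, 6189150 to 6192352) had 377, 256, 416, 331 and 223 CPM in saline, 235, 192, 207, 190 and 225 CPM after rFsh and 276, 247, 250, 223 and 225 CPM after rLh. Saline 68 lay within the hormone fish and saline 64 within the rLh fish, so that the excess was in saline 63, 66 and 67, and the pooled log2 fold change was -0.50 ± 0.12 (-0.61 without saline 68).

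Summed over the 75 genes the level was 44770, 34690, 47290, 38260 and 31320 CPM in saline 63, 64, 66, 67 and 68. After rFsh it was 30970, 29760, 29490, 29180 and 31270 CPM, and after rLh 39210, 38570, 35660, 32950 and 31720 CPM. All rFsh fish were below all saline fish, the nearest being rFsh 69 and saline 68, while the rLh fish spanned saline 64 and 67, and saline 68 lay below all rLh fish. The saline fish with the 2 highest sums, saline 63 and 66, were also the deepest libraries, at 100700000 and 109800000 reads, and the part of depth in this result was not tested. The plot of gene lists by fish gives the median over the members in place of the sum, and there saline 68, at -0.32, lay among the rFsh fish.

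**Figure D4:**
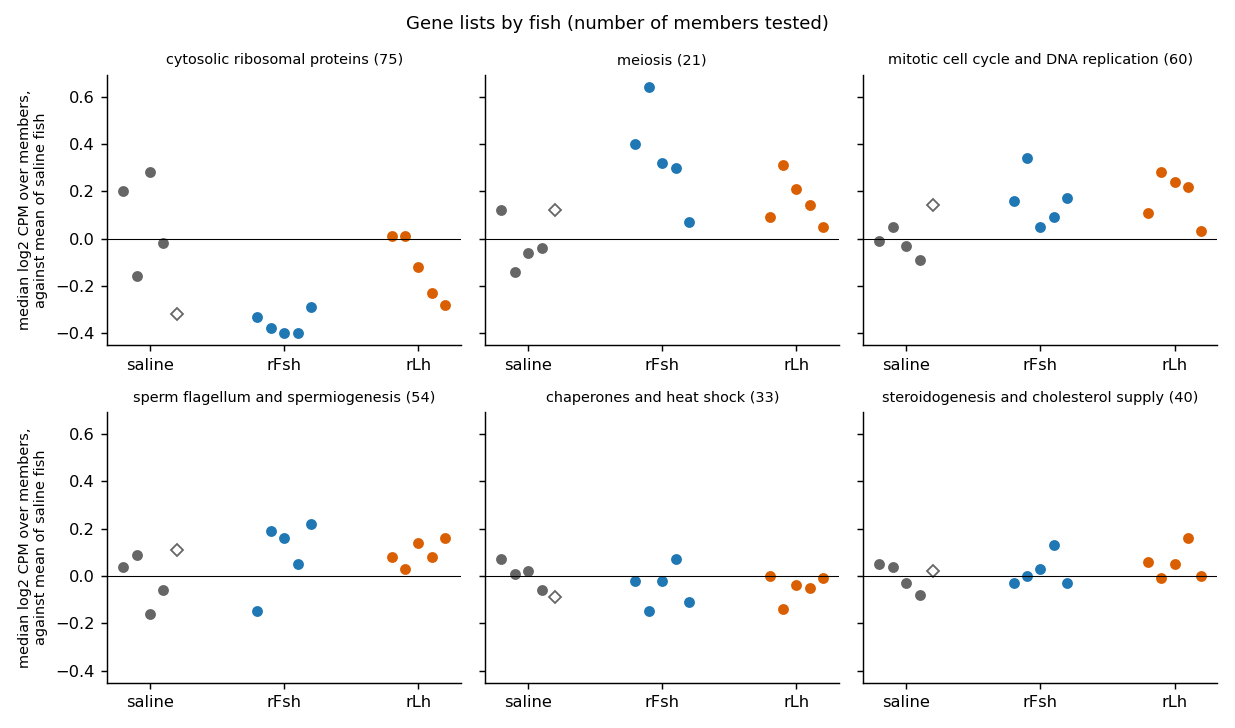
Median over the members of a list of log2 CPM minus the mean of the 5 saline fish (y axis) for each fish, in 6 gene lists with the number of members tested. Points are single fish and the open diamond is saline 68. For ribosomal proteins all 5 rFsh fish lie between -0.40 and -0.29, the rLh fish between -0.28 and 0.01 and the saline fish between -0.32 and 0.28.

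Cell junction genes were of interest because the study asked how gonadotropins act on adhesion in the testis. The list of junction genes was matched by symbol and leaves out loci without one. Among those left out are the PARD3 and GJA3 matches described below, which lay below saline. Of 64 tested genes of junctions and polarity, 37 were above and 27 below saline, with 4 higher and 5 lower at an unadjusted p under 0.05 (6.25% and 7.81%, against 8.04% and 9.14% of all genes) and a median of 0.03, close to all genes. nectin3b (linkage group 13, 17620939 to 17641844), an adhesion molecule of the nectin family, which in mammals joins spermatids to Sertoli cells, had the largest difference among these 9. It had 4.32, 3.58, 2.67, 2.60 and 4.63 CPM in saline, 3.78, 6.06, 6.39, 6.06 and 7.23 CPM after rFsh and 5.87, 5.81, 8.32, 7.19 and 6.40 CPM after rLh. Only rFsh 61, at 3.78, lay within the saline range, and the pooled log2 fold change was 0.82 ± 0.18 (unadjusted p = 0.000264). Its paralogue nectin3a, far more abundant, was at 229 ± 11 CPM (SD, n = 5) in the saline fish, 206 ± 20.1 after rFsh and 193 ± 21.5 after rLh (-0.20 ± 0.07). The cadherin cdh11 was at 53.1 ± 3.60, 49.7 ± 4.20 and 40.5 ± 3.56 CPM, lower mainly after rLh (rLh minus rFsh -0.30, -0.47 to -0.13), and tjap1, a protein of tight junctions, at 37.7 ± 3.71, 30.4 ± 2.40 and 34.1 ± 2.11 CPM (-0.23 ± 0.07).

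A set of genes was taken from those that the study described as moved by both hormones, and it does not hold all of them. The study chose most of the set on fish sequenced here, so their values are no independent evidence of direction, while insl3, rln1 and rln3 were described from RT-qPCR on other fish of the experiment. So were creb1 and creb3l3, with significance stated for rFsh only. The loci of these last genes named here were also printed among the study's differential genes. Of the 20 loci of the set in the counts, 18 were tested, 8 above and 10 below saline, with 1 higher (5.56%, against 8.04% of all genes) and 7 lower (38.9%, against 9.14%) at an unadjusted p under 0.05. Loci that the symbols did not match entered the set only through human matches, which the study printed for its differential genes. The shares of the set are therefore shaped by that choice, and nothing is drawn from them. 2 loci match PARD3, a scaffold of cell polarity. LOC122781630 (linkage group 1, 2889835 to 3065483) was at 108 ± 23.7 CPM (SD, n = 5) in the saline fish, 77.4 ± 13.6 after rFsh and 75.5 ± 7.24 after rLh (-0.50 ± 0.12), and LOC122783155 at 29.8 ± 4.83, 23.8 ± 5.11 and 19.3 ± 2.76 CPM (-0.48 ± 0.13). The named paralogues pard3aa and pard3bb were at -0.06 ± 0.11 and 0.08 ± 0.09, and the sign of pard3aa turned to 0.02 without saline 68.

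3 loci match GJA3, a connexin of gap junctions, and all were below saline. LOC122763068, on an unplaced scaffold, had 20.6, 15, 24.6, 24.8 and 10.3 CPM in the saline fish, 6.51 to 15.3 CPM after rFsh and 8.90 to 13.5 CPM after rLh, with saline 68 inside the hormone range and saline 64 just inside the rFsh range (-0.80 ± 0.20, -0.95 without saline 68). LOC122784258 (-0.70 ± 0.25) and LOC122783777 (-0.52 ± 0.18) lie next to each other on linkage group 17, at 18260735 to 18265311 and 18256340 to 18259096. Reads of such similar genes may have been divided between them. The gene annotated gja3 itself was scarce, at 0.318 ± 0.0763 CPM in saline, with 0.53 ± 0.35.

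Transcription factors downstream of cyclic AMP and calcium were also in that set. LOC122765116, which matches CREB1, the factor that protein kinase A phosphorylates, had 3.52, 5.25, 2.52, 2.95 and 8.85 CPM in saline, 3.73, 12.7, 11.1, 10.2 and 11.7 CPM after rFsh and 5.66, 7.05, 12.3, 9.69 and 9.84 CPM after rLh. Saline 68 was among the hormone fish and rFsh 61 among the saline fish, and the pooled log2 fold change was 1.04 ± 0.32, or 1.42 without saline 68. atf1, which has the same human match, was at -0.17 ± 0.09. creb3l3l, a factor of the endoplasmic reticulum membrane, was at 82.0 ± 15.7 CPM (SD, n = 5) in the saline fish, 65.4 ± 9.76 after rFsh and 66.4 ± 7.25 after rLh (-0.31 ± 0.11), and jun at 25.5 ± 9.97, 17.0 ± 3.74 and 18.2 ± 2.11 CPM (-0.54 ± 0.19, -0.34 without saline 66 and -0.71 without saline 68).

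Of the hormone genes and receptors in the set, none had an unadjusted p under 0.05. oxtra, an oxytocin receptor, was at 0.852 ± 0.409 CPM (SD, n = 5) in the saline fish, 1.5 ± 1.10 after rFsh and 1.49 ± 0.528 after rLh (0.82 ± 0.40). insl3, the insulin-like hormone of Leydig cells, had 231, 127, 114, 114 and 543 CPM in the saline fish, 159 to 923 CPM after rFsh and 275 to 523 CPM after rLh, with saline 68 far above the other saline fish (0.81 ± 0.42, 1.43 without saline 68). cacnb1, a subunit of calcium channels, had the same pattern with 4.22 to 7.79 CPM in 4 saline fish and 52.9 CPM in saline 68, and its pooled log2 fold change was 0.71 ± 0.53 over all fish, 2.03 without saline 68 and 0.46 without saline 66. The relaxins rln1 (-0.37 ± 0.23) and rln3a (0.52 ± 0.32, overlapping rfx1a) and the phospholipase plcb3 (0.17 ± 0.09) were the other members.

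The wider oxytocin and relaxin systems had 47 tested members, 29 above and 18 below saline, with 6 higher (12.8%, against 8.04% of all genes) and 2 lower (4.26%, against 9.14%) at an unadjusted p under 0.05 and a median of 0.11. prkcbb, a protein kinase C, had 43.8, 43.9, 52.8, 51.3 and 26.8 CPM in the saline fish, 23.1 to 28.3 CPM after rFsh and 27.2 to 39.8 CPM after rLh. The hormone fish lay below all saline fish other than saline 68 (-0.59 ± 0.13, -0.72 without saline 68, unadjusted p = 0.000448). itpr3, an IP3 receptor that releases calcium, was at 11.6 ± 1.12 CPM (SD, n = 5) in the saline fish, 14.9 ± 2.47 after rFsh and 14.7 ± 1.57 after rLh (0.36 ± 0.11). ppp3ca, the catalytic subunit of calcineurin, was at 1.40 ± 0.294, 2.53 ± 0.743 and 1.84 ± 0.197 CPM (0.63 ± 0.19).

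Receptor and second messenger genes were near the background. Of 39 tested genes of gonadotropin receptors and cyclic AMP signalling, 26 were above saline. At an unadjusted p under 0.05, 3 were higher and 2 lower (7.69% and 5.13%, against 8.04% and 9.14% of all genes). After each hormone 0 met it, where 2.22% of all genes were higher and 2.65% lower. The regulatory subunit prkar1b was at 76.5 ± 8.88 CPM (SD, n = 5) in the saline fish, 107 ± 11.7 after rFsh and 80.4 ± 6.27 after rLh, a difference between the hormones of -0.41 (-0.61 to -0.21). The phosphodiesterases pde7a and pde4ca were at 0.26 ± 0.08 and -0.46 ± 0.21, and rapgef4a, a cyclic AMP sensor, at 0.30 ± 0.10. The Lh receptor lhcgr was at 74.2 ± 29.5 CPM in the saline fish, 76.2 ± 22.7 after rFsh and 105 ± 38.7 after rLh.

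Of 40 genes of steroidogenesis and cholesterol supply, 22 were above saline, with a median of 0.04. At an unadjusted p under 0.05, 4 were higher and 2 lower (10.0% and 5.0%, against 8.04% and 9.14% of all genes). The list was matched by symbol, and cyp11a1, cyp17a1 and cyp11c1, which encode steroidogenic P450 enzymes, were not among the symbols found. insig1, a brake on cholesterol synthesis, had 34.2 to 39.2 CPM in saline and 38.6 to 65.3 CPM after hormone (0.39 ± 0.11). porb, which gives electrons to some, not all, steroidogenic P450 enzymes, had 216, 160, 176, 155 and 310 CPM in saline, 176 to 412 CPM after rFsh and 261 to 445 CPM after rLh (0.57 ± 0.20, 0.77 without saline 68). Both met the threshold after each hormone, where 2.22% of all genes were higher after each. lss, an enzyme of cholesterol synthesis (0.40 ± 0.18), and hsd17b12b (-0.23 ± 0.09) and hsd17b3 (-0.59), enzymes of the 17-beta-hydroxysteroid dehydrogenase family, of which hsd17b3 acts on androgens in mammals, met it in the pooled contrast but not after each hormone. star, which brings cholesterol into the mitochondrion, was at 106 ± 56.6, 148 ± 54.7 and 104 ± 22.4 CPM.

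Genes of Sertoli cell factors and the germ cell niche, taken as 1 list, were near the background. Of 37 tested, 23 were above saline, with a median of 0.06. At an unadjusted p under 0.05, 2 were higher and 1 lower (5.41% and 2.7%, against 8.04% and 9.14% of all genes). kitb, a receptor of germ cells, was at 2.42 ± 0.743 CPM (SD, n = 5) in the saline fish, 5.71 ± 1.94 after rFsh and 3.36 ± 1.0 after rLh (0.89 ± 0.24, rLh minus rFsh -0.77, -1.33 to -0.21). igfbp5a, which binds insulin-like growth factors, had 38.9 to 46.3 CPM in 4 saline fish and 86.9 CPM in saline 68, with 46.8 to 99.6 CPM after rFsh and 73.7 to 145 CPM after rLh (0.67 ± 0.23, 0.94 without saline 68). amh, the anti-Müllerian hormone that restrains spermatogonia in fish, was at 180 ± 29.8 CPM in the saline fish, 129 ± 18.3 after rFsh and 175 ± 22.5 after rLh, with the lower mean after rFsh (rLh minus rFsh 0.44, 0.17 to 0.71).

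An immunoglobulin light chain and a heavy chain gene were higher. LOC122785839 (linkage group 19, 10597248 to 10601336), which matches the immunoglobulin light chain gene IGLL5, had 1.13, 1.77, 1.54, 1.12 and 0.914 CPM in saline, 4.19, 3.79, 9.99, 5.81 and 3.24 CPM after rFsh and 2.85, 2.36, 1.70, 4.99 and 2.63 CPM after rLh. All fish but rLh 66 were above the saline range, and the pooled log2 fold change was 1.61 ± 0.32 (unadjusted p = 0.000137). ighd, the heavy chain of immunoglobulin D, had 32.9 to 96.2 CPM in saline, 150 to 655 CPM after rFsh, of which 655 CPM in rFsh 64 was well above the others, and 88.8 to 183 CPM after rLh (1.5 ± 0.35). Immunoglobulin genes are a multigene family, and the span of ighd overlaps 2 other genes, so its count may be affected. Of 3 tested markers of B cells, cd79b was at 1.34 and cd79a at 0.55 on the log2 scale and pax5 at -0.13, and their sum was 2.27 to 5.88 CPM in the saline fish, 3.17 to 7.45 CPM after rFsh and 3.32 to 6.30 CPM after rLh. The part of B cells in these results was not tested. In the immune response list at large, 12 of 27 were above saline. At an unadjusted p under 0.05, 2 were higher and 2 lower (7.41% each, against 8.04% and 9.14% of all genes). stat1a, a mediator of interferon signalling, was at 308 ± 50.3, 248 ± 17.8 and 235 ± 23.5 CPM (-0.35 ± 0.09) and stat3 at -0.17 ± 0.07. Higher at low levels were irf1a (0.70 ± 0.28) and ccr7 (0.53 ± 0.24, 0.86 without saline 68). The counts of irf1a ran from 18 to 80, and it entered the comparison through rLh 67 alone, the fish where it was highest.

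Among genes without overlap, LOC122776097 (linkage group 10, 8260641 to 8265965), which matches the skeletal muscle troponin TNNI2, had 0.178, 0.217, 0.238, 0.260 and 0.150 CPM in saline, 7.87, 0.776, 15.5, 14.6 and 1.41 CPM after rFsh and 0.962, 0.311, 9.38, 0.872 and 0.283 CPM after rLh. The hormone fish ranged from rLh 68 at 0.283, just above saline 67 at 0.260, to rFsh 64 at 15.5, and the pooled log2 fold change was 4.4 ± 1.14. Its counts ran from 12 to 932 over all fish, and no saline fish reached 50. The gene thus entered the comparison through hormone fish alone, and its separation at the low end rests on few reads. Of 9 markers of skeletal muscle, 3 were tested, and their sum was 7.35 to 19.0 CPM in saline, 12.8 to 27.4 after rFsh and 11.4 to 18.2 after rLh, while ckma, ckmb and mylpfa did not reach 50 counts in any fish. The part of muscle tissue in this result was not tested. The match of B3GNT3, a glycosyltransferase, had 1.96 to 2.57 CPM in saline and 2.70 to 4.58 CPM after hormone (0.58 ± 0.15).

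Other large differences were uneven between the hormones. The match of HSPB1, a small heat shock protein, was at 0.0534 ± 0.0201 CPM (SD, n = 5) in the saline fish, 0.688 ± 0.370 after rFsh and 0.198 ± 0.291 after rLh, where rLh 68 alone had 0.718 CPM (2.76 ± 0.68). The counts of the HSPB1 match ran from 2 to 91 over all fish, and no saline fish reached the count needed for entry. The HSPB1 match thus entered the comparison through hormone fish alone. The size of its fold change rests on few reads in saline. The match of CSMD3, a large adhesion protein, was at 4.75 ± 1.18, 17.3 ± 3.25 and 7.28 ± 5.11 CPM, with rLh 64 alone at 16.2 CPM (1.25 ± 0.29, rLh minus rFsh -1.24, -1.90 to -0.58). For these 2 genes the pooled value joins an rFsh group that lay apart and an rLh group of which 1 fish did.

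Chaperone and early response genes lay on both sides of saline. Of 33 chaperones, 20 were below saline, with 1 higher and 7 lower at an unadjusted p under 0.05 (3.03% and 21.2%, against 8.04% and 9.14% of all genes) and a median of -0.02. hsf1, the master regulator of the heat shock response, was at 98.5 ± 6.41 CPM (SD, n = 5) in the saline fish, 83.4 ± 4.65 after rFsh and 86.8 ± 3.72 after rLh (-0.21 ± 0.05). The mitochondrial chaperone hspa9 (-0.19 ± 0.06), the co-chaperone dnajc3a (-0.33 ± 0.11) and the abundant hsp90ab1, at 3810 ± 264, 3270 ± 198 and 3390 ± 182 CPM (-0.19 ± 0.07), were lower too. Of 26 immediate early genes 15 were below saline, with 3 higher and 5 lower (11.5% and 19.2%, against the same 8.04% and 9.14%). dusp5, a phosphatase that switches off ERK, had 10.9, 13.0, 12.5, 15.1 and 37.2 CPM in saline, 20.2 to 76.5 CPM after rFsh and 24.3 to 42.7 CPM after rLh, so that saline 68 again lay with the hormone fish (1.02 ± 0.33, 1.48 without saline 68). mych (-0.28 ± 0.10) and klf6a (-0.27 ± 0.10) were below saline beside jun.

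Extracellular matrix genes were mostly above saline by small amounts. Of 40 tested, 31 were above saline, with a median of 0.10. At an unadjusted p under 0.05, 5 were higher and 1 lower (12.5% and 2.50%, against 8.04% and 9.14% of all genes). After each hormone 0 met it, where 2.22% of all genes were higher and 2.65% lower. The inhibitor of metalloproteinases timp2a was at 213 ± 22.3 CPM (SD, n = 5) in the saline fish, 240 ± 26.8 after rFsh and 265 ± 38.3 after rLh (0.24 ± 0.09). The laminin chain lamb2 (0.23 ± 0.10), the collagen crosslinking enzyme loxl2a (0.18 ± 0.08) and the collagen col6a3 (0.24 ± 0.10) were of like size.

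How far the counts rest on single fish was examined by leaving out each in turn. The number of genes called by edgeR was 415 without saline 68, 35 without rFsh 69, 1 each without rFsh 61, rLh 64 and rLh 68, and 0 in the other fits. The number at an unadjusted p under 0.05 was between 2409 without saline 66 and 5225 without saline 68, against 3647 with all fish. The number that met this after each hormone went from 1034 to 2299 without saline 68, and to 549 without saline 66 and 679 without saline 67, and the genes without overlap from 52 to 552 without saline 68. The count without overlap can only stay or rise when a fish is left out. The bar plot shows that no other fish moved the adjusted count as far as saline 68.

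**Figure D5:**
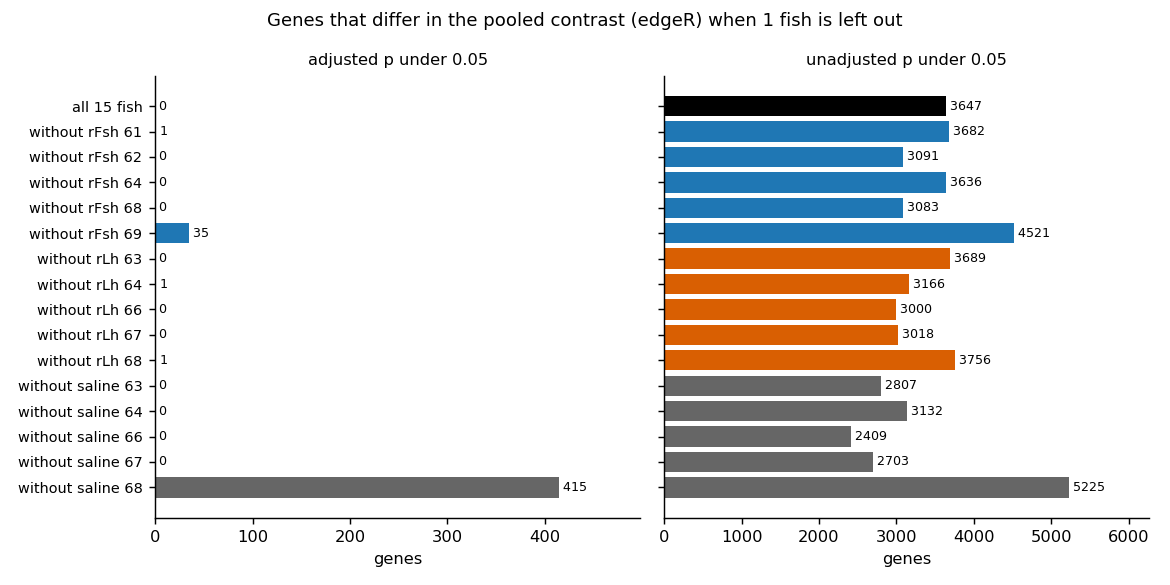
Number of genes (x axis) at an adjusted p under 0.05 (left) and at an unadjusted p under 0.05 (right) in the pooled edgeR contrast with all 15 fish and with each fish left out (y axis). Bars are coloured by the group of the fish left out. Without saline 68 there were 415 genes on the left and 5225 on the right, the highest of both panels.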

How the data were processed

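Testis RNA of 15 fish was sequenced, 1 library per fish, as read pairs of 100 bp. The authors trimmed the reads with Cutadapt 3.4, aligned them to the sole assembly IFAPA_SoseM_1 with Subread 2.0.1 and deposited raw read counts per gene. Reads were assigned with default settings in R, which use no strand. Overlaps between genes are given here by their spans, and overlap of their exons was not examined. All columns were used (0 left out). Groups came from the labels. Whether fish shared a tank is not given, and p-values measure the spread between these fish.

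The counts of 21227 genes were fitted with edgeR 4.0.16 (TMM factors, quasi-likelihood test, two-sided, 1 mean per group) in R 4.3.3, with contrasts of both hormones, of each hormone and between hormones, and Benjamini-Hochberg adjustment over all tested genes. Levels are CPM with TMM factors, and log2 CPM for components used a prior count of 2. Alternatives included DESeq2 1.42.0, limma 3.58.1, other scalings and filters, a block on fish number, 12 fish and leaving out each fish, and 3 were added after the data were seen. The fish number marks no shared animal, and deviations of same-numbered fish correlated between -0.246 and 0.484, so the numbers were not taken as pairs. No pair of libraries in a group agreed within sampling noise. Scripts (Python 3.11.15) were tested on simulated data.

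Named were the 12 higher and 12 lower genes of smallest p with the same sign after each hormone and a known protein (2 and 1 without one were passed over), the 5 of largest fold change each way at p under 0.001 and among genes without overlap, up to 4 of smallest p in each list, and a set of genes the study described as moved by both hormones. A few single genes are not reported here. Other members were named after their values were seen. Human matches are printed by the study for its differential genes only, which favours those genes under this rule. Members and lists were chosen with earlier results of these data known. Lists were matched by symbol, so the 8460 tested genes with an identifier in place of a name entered none but the set from the study. Promoter motifs were not analysed here, because the reference used holds no sequence.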

Additional observations from a re-analysis of the deposited data

Results flagged for a closer look

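Among 306 groups of 5 fish examined for the named genes, 25 held a fish far from the other 4, where chance gives about 1 in 20. In saline these were saline 63 for uspl1 (201 CPM), saline 66 for the MTNR1A match LOC122773035 (1.83 CPM), and saline 67 for ccdc88c (567 CPM), the TMEM200A match LOC122779972 (99.0 CPM) and bfsp2 (19.6 CPM). Saline 68 was the high fish for insl3 (543 CPM), igfbp5a (86.9 CPM), cacnb1 (52.9 CPM), dusp5 (37.2 CPM), mogat2 (5.12 CPM) and orc5 (3.81 CPM).

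After rFsh, fish 61 was low for spag6 (9.65 CPM), the CREB1 match LOC122765116 (3.73 CPM) and the CASR match LOC122773964 (0.597 CPM), and fish 69 was low for dmc1 (25.2 CPM). Fish 64 was high for ighd (655 CPM), and fish 62 for mogat2 (2.08 CPM). After rLh, fish 67 was high for porb (445 CPM), timp2a (331 CPM), igfbp5a (145 CPM) and irf1a (1.29 CPM). Fish 66 was high for the TNNI2 match LOC122776097 (9.38 CPM) and the CASR match (1.72 CPM), fish 64 for the CSMD3 match LOC122774892 (16.2 CPM) and fish 68 for the HSPB1 match LOC122758491 (0.718 CPM).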

How the results depend on the processing

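The count of genes called was 0 by edgeR with all fish, 353 by DESeq2 (177 higher, 176 lower), 1 (lower) at an adjusted p under 0.1, and 0 to 415 with 1 fish left out (higher 0 to 183, lower 0 to 232). It was 0 in edgeR over the 12 fish, 4 per group, without rFsh 62, rLh 68 and saline 68. The labels do not give which fish to leave out, and these were chosen with earlier results of these data known. In 2 settings chosen after seeing the data, DESeq2 over these 12 fish called 2176 (941 higher, 1235 lower) and without saline 68 called 2366 (1106 higher, 1260 lower). With the fish number as a block 5 genes were called, all 5 higher, and the genes at an unadjusted p under 0.05 after each hormone fell from 1034 to 470. That count was 1788 with limma-voom, 1746 over the 12 fish, 1987 and 2562 with DESeq2 over the 12 fish and without saline 68, and 549 to 2299 with 1 fish left out. Genes at an unadjusted p under 0.05 in the pooled contrast were 2409 to 5225 with 1 fish left out and 5490 with DESeq2 without saline 68, and genes without overlap 58 to 552 with 1 fish left out and 673 over the 12 fish. The count without overlap cannot fall when fish are left out. The cause of the other differences between settings was not tested. Of the named genes only pard3aa, at -0.06, changed sign: it was 0.03 over the 12 fish, 0.02 with DESeq2 over them, 0.01 with DESeq2 without saline 68, and -0.13 to 0.02 with 1 fish left out, 0.02 being without saline 68. Of the values of named genes under the alternatives, 2792 kept direction and side of the threshold, 258 passed it and 4 reversed.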

Other observations

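A pair of gene lists was formed after values had been seen and carries no test. Of 17 tested hox genes, 10 were above and 7 below saline, and the median log2 fold change was 0.07. At an unadjusted p under 0.05, 4 were higher and 1 lower (23.5% and 5.88%, against 8.04% and 9.14% of all genes). Only hoxa3a and hoxc13a met it after each hormone, where 2.22% of all genes were higher after each. The other list held 55 tested genes of the respiratory chain and ATP synthase, all with symbols beginning with nduf, sdh or atp5. No symbol beginning with cox or uqcr is on it, so it covers the chain only in part and leaves out the COX6B1 match. Of the 55, 23 were above and 32 below saline, with a median of -0.01, close to the 0.01 of all tested genes. At an unadjusted p under 0.05, 1 of the 55 was higher and 4 were lower (1.82% and 7.27%, against 8.04% and 9.14% of all genes). sdhb (-0.22) and atp5mj (-0.25) met it after each hormone, where 2.65% of all genes were lower after each.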
